A study of Mus musculus with 28 samples.

Results

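The gastric gland enzymes and acid pump described here are 8 mouse genes, Cblif, Pga5, Pgc, Ctse, Atp4a, Atp4b, Bhlha15 and Dmbt1. They were picked by gene symbol, and each was read through the probe set (the group of probes that gives 1 value per array) with the highest mean over all arrays. The array holds 10 probe sets for them, and all 8 genes stand among the 13613 genes tested. Total RNA had been hybridised to 28 Affymetrix mouse expression arrays, 2 for each of 14 groups. The groups are p63 KO and wildtype (WT) Balb/c mice, in bladder at embryonic days 15, 18 and 19 (E15, E18, E19) and, at E18, in both regions of the stomach (proximal and distal) and both of the intestine (small and large). The sources used here do not state the allele, where the stomach was divided, how many animals were pooled or sampled, or whether the 2 arrays of a group come from separate animals. The p-values therefore measure the spread between samples, which may be technical.

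The proximal part of the mouse stomach is lined by stratified squamous epithelium, whose basal cells use the transcription factor p63, and the distal part by glands. In the glands, chief (zymogenic) cells secrete the pepsinogens that acid turns into pepsin, and parietal cells pump that acid with a proton and potassium exchanging ATPase. In rodents chief cells also secrete gastric intrinsic factor, which carries vitamin B12 (cobalamin) to the ileum. The question put to these genes was which of them the KO proximal stomach gained, and which it did not.

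Values are on a log2 scale, so a difference of 1 is a 2-fold difference in signal, and levels of different probe sets are not comparable. Array medians lay between 7.48 and 7.86 and first quartiles between 5.59 and 5.86. The 4 bladder E19 arrays had medians of 7.48 to 7.53, and all other arrays of 7.73 or higher. A gene was called when limma's p, adjusted over all 13613 genes of a comparison by the method of Benjamini and Hochberg, was under 0.05. The 2 arrays of a group correlated at 0.980 to 0.994. Trp63, the p63 gene, was higher in KO than in WT proximal stomach on each of its 4 probe sets, with means of 7.55 to 13.72 in KO and 6.44 to 13.24 in WT. The sources used here do not place these probes relative to the deletion, so they check nothing about the allele. Krt5, a keratin of basal cells, averaged 8.25 in KO and 14.05 in WT proximal stomach.

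The distal stomach carried the gland genes in both genotypes. Cblif, gastric intrinsic factor, read 12.41 and 12.57 in KO distal stomach, against 13.26 and 12.35 in WT distal stomach. Its means in the other 12 groups lay between 4.15 and 5.66, so 2 groups stood alone and overlapped each other. Pgc, pepsinogen C, read 12.98 and 12.75 in KO distal stomach, against 12.92 and 13.15 in WT distal stomach. Pgc was next highest in KO proximal stomach, with a mean of 5.99, and its other 11 group means lay between 4.65 and 5.28. Atp4b, the beta subunit of the acid pump, read 13.65 and 13.31 in KO distal stomach, against 14.35 and 13.38 in WT distal stomach, and between 6.78 and 7.63 in the means elsewhere. For each of these 3 genes the KO and WT distal arrays overlapped, far from every other tissue.

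Pga5, a pepsinogen A, read 14.28 and 14.43 in KO distal stomach, against 14.75 and 14.36 in WT distal stomach. It had the next highest means in WT proximal stomach (8.75), KO proximal stomach (7.94) and WT small intestine (7.64), whose arrays overlapped from one to the next, and its lowest mean was 5.07 in KO large intestine. Atp4a, the catalytic subunit of the acid pump, read 10.13 and 10.20 in KO distal stomach, against 12.72 and 10.03 in WT distal stomach. KO proximal stomach came next for Atp4a with a mean of 6.91, and its other group means lay between 5.12 and 6.13. The KO distal arrays lay between the WT distal pair, which differed widely from each other.

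Ctse, Bhlha15 and Dmbt1 had other distributions over the tissues. Ctse (cathepsin E, an intracellular aspartic protease) averaged 13.33 in KO and 13.52 in WT distal stomach, but KO bladder E19 was close behind at 13.05, and WT proximal stomach was lowest of all at 5.68. Bhlha15, a transcription factor also called Mist1 that chief cells share with pancreatic acinar and plasma cells, averaged 10.89 in KO and 11.65 in WT distal stomach. KO proximal stomach followed at 9.93, and WT large intestine, next in order at 8.06, did not overlap it. Dmbt1, a secreted mucosal scavenger receptor, averaged 13.65 in KO and 13.50 in WT small intestine, 12.41 in KO and 13.45 in WT distal stomach, and 11.82 in KO and 12.72 in WT large intestine. In the remaining 8 groups the Dmbt1 means lay between 4.51 and 5.55, so it marked intestine as well as glandular stomach.

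**Figure D1:**
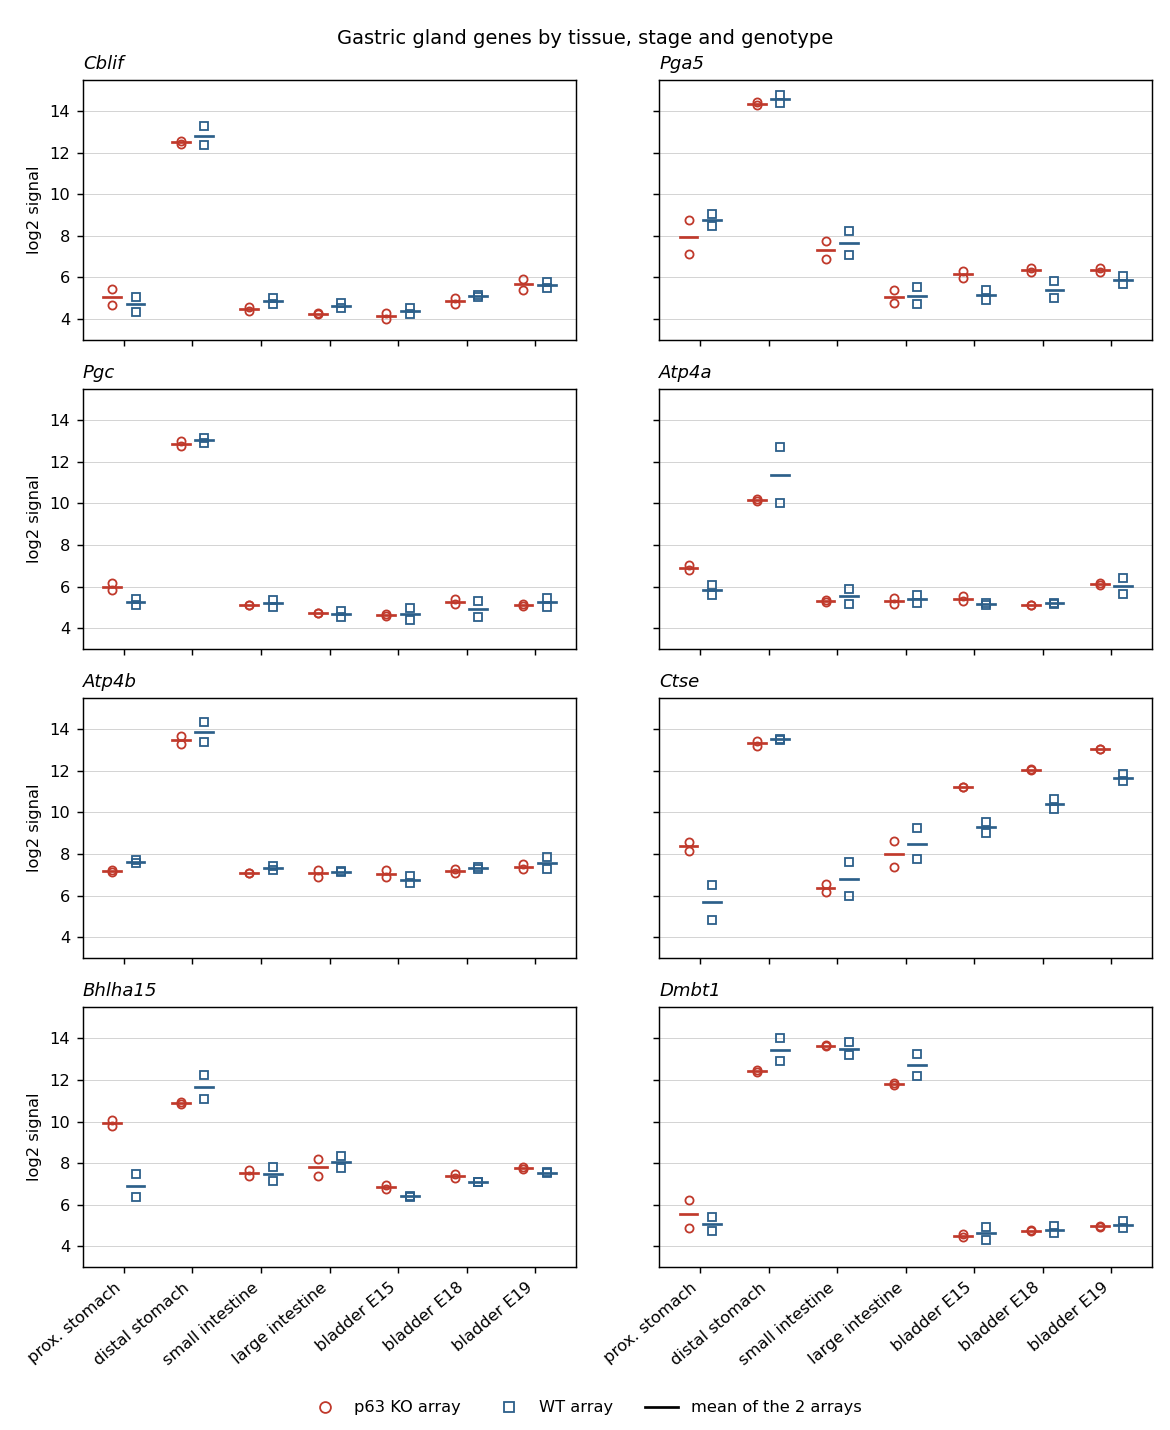
Log2 signal of the 8 genes on each array, with p63 KO (red circles) left of WT (blue squares) in each of the 7 tissues and stages and a line at the mean of the 2 arrays. Cblif, Pgc, Atp4a and Atp4b stand high in distal stomach alone, while Bhlha15 is also high in KO proximal stomach (9.93), Ctse in bladder and Dmbt1 in the intestines.

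Over the 14 group means, Cblif, Pgc, Atp4a and Atp4b followed one another at Pearson correlations of 0.97 to 0.99. Dmbt1 correlated with the other 7 genes at −0.18 to 0.48. These correlations are descriptions over 14 points that share tissues and are carried mainly by distal stomach. Among all genes, Cblif was most like Cldn18 (0.994), which encodes a claudin of gastric tight junctions, and then Atp4b (0.993) and Pgc (0.990). Atp4b was most like Kcne2 (0.997), the small subunit of the potassium channel that parietal cells use beside the pump, then Cldn18 (0.996) and Cblif (0.993). Pgc was most like Cldn18 (0.995), Atp4b (0.993) and Gkn1 (0.993), a gastrokine of surface mucous cells. Atp4a was nearest to the mucin gene Muc5b (0.987), Pgc (0.979) and Cldn18 (0.977), and Pga5 to Anxa10 (0.966), Pgc (0.956) and Bpifb1 (0.951). Cldn18 was thus among the nearest 3 genes of Cblif, Pgc, Atp4a and Atp4b. The neighbours of Bhlha15 were 2210407C18Rik (0.954) and the mucous cell genes Muc1 (0.948) and Tff2 (0.947). Ctse was nearest to Gsdmc2 (0.950), Scamp5 (0.938) and Vsig2 (0.934), and Dmbt1 to Cyp2d26 (0.993), Afm (0.987) and Sult1b1 (0.987).

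RefSeq promoters (build GRCm38.p6), which span 250 bases before to 50 after the annotated start, were at hand for 4 of the 8 genes. Shown here are Cblif and Pgc, which stayed under the array medians in KO proximal stomach, and Bhlha15, which did not. Capitals mark a match to a searched motif. Each lies on the plus strand, at chr19:11747309-11747608 for Cblif, chr17:47726592-47726891 for Pgc and chr5:144190036-144190335 for Bhlha15.
Cblif: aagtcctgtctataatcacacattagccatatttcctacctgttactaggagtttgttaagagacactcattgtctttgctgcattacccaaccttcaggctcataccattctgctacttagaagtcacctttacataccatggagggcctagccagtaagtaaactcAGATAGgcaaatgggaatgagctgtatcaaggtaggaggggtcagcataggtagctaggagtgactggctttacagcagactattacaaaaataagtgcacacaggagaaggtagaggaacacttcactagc
Pgc: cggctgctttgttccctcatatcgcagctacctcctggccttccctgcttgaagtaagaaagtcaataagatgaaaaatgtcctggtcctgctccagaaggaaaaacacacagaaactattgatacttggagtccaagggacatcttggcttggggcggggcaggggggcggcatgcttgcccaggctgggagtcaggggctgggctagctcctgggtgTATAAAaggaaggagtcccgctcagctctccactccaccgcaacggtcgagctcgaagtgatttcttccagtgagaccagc
Bhlha15: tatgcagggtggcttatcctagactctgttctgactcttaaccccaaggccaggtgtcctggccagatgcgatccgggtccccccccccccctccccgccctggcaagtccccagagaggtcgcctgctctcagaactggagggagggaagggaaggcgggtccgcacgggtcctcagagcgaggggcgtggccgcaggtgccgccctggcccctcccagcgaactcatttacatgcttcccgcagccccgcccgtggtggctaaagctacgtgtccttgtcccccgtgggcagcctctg
The motifs searched on both strands were the GATA factor words (AGATAA or AGATAG, with TGATAA or TGATAG), the TATA box word TATAAA, the E-box CATATG and the estrogen-related receptor word AAGGTCA. Cblif held AGATAG starting 82 bases before the start, and Pgc held TATAAA starting 31 bases before it. The Bhlha15 window held none of these words, nor did that of Atp4a at chr7:30711959-30712258. Of 32851 promoters of the same length, 29.8% held a GATA word, 13.6% TATAAA, 3.9% CATATG and 4.7% AAGGTCA.

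WT distal stomach was set against WT proximal stomach to give the size of the normal regional step. All 8 genes were called higher in WT distal stomach, where 22.3% of all genes were called higher. The differences were 8.38 (SE 0.39) for Dmbt1, 8.10 (SE 0.31) for Cblif, 7.84 (SE 0.52) for Ctse, 7.78 (SE 0.26) for Pgc and 6.23 (SE 0.25) for Atp4b. They were 5.80 (SE 0.45) for Pga5, 5.55 (SE 0.50) for Atp4a and 4.73 (SE 0.36) for Bhlha15, with adjusted p of 8.6e-09 or lower for all 8 in limma. The count is no support in itself, because genes had to exceed the array median on 2 arrays to be tested, and Cblif, Pgc and Atp4a did so on 4 arrays each, the 4 of distal stomach. In whole tissue, fewer cells of a type and less RNA per cell cannot be told apart.

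In proximal stomach, KO against WT, 3 of the 8 gland genes rose and the other 5 did not pass the test. Bhlha15 and Ctse rose most, Pgc by less, and Cblif, Pga5, Atp4a, Atp4b and Dmbt1 were not called. Over all genes 32.7% were called, 18.1% higher and 14.6% lower, so 3 of 8 is near the background. The median difference was 0.60 over the 8 genes and 0.02 over all genes.

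Bhlha15 read 10.09 and 9.78 in KO proximal stomach, against 6.35 and 7.49 in WT proximal stomach. Both KO arrays lay well above both WT arrays. The difference was 3.01 (SE 0.36, 95% interval 2.27 to 3.76), an 8.08-fold higher signal in KO, with limma's adjusted p = 9.2e-07. The gene was called under all 13 alternative settings, at 2.44 to 3.59, all on this probe set. A second Bhlha15 probe set was below the median of every array, with a mean of 4.33 in KO and 4.77 in WT proximal stomach. Its means were also low in distal stomach, at 4.58 in KO and 4.71 in WT. It did not pass the filter, so the rise of Bhlha15 rests on the first probe set.

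Ctse read 8.15 and 8.60 in KO proximal stomach, against 4.84 and 6.52 in WT proximal stomach. The KO arrays lay above the WT arrays, and the WT pair was the more spread. The difference was 2.69 (SE 0.52, 95% interval 1.62 to 3.77), a 6.47-fold higher signal in KO, with limma's adjusted p = 3.4e-04. It was 1.85 (adjusted p = 0.0196) without WT replicate 1 and 3.54 (adjusted p = 5.9e-05) without WT replicate 2. A second Ctse probe set, whose suffix marks probes that match more than 1 transcript, had almost the same mean over all arrays (9.82, against 9.88) but another pattern. It read 9.55 and 9.15 in KO, against 9.81 and 9.41 in WT proximal stomach, a difference of −0.26 (SE 0.22, adjusted p = 0.407). The 2 probe sets disagree, so the rise of Ctse rests on the first, and their average gave 1.22 (adjusted p = 0.00357). On the second, WT distal stomach exceeded WT proximal stomach by 1.06 (SE 0.22).

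**Figure D2:**
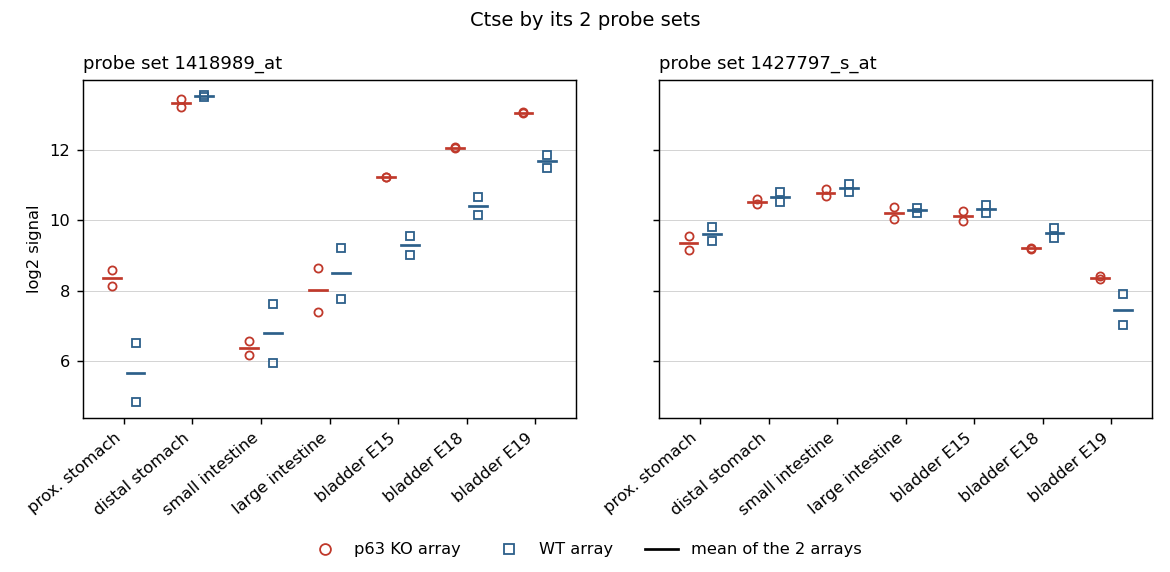
Log2 signal of the 2 Ctse probe sets on each array, with p63 KO (red circles) left of WT (blue squares) and a line at the mean of the 2 arrays. On the first probe set (left) KO lies above WT in proximal stomach and at the 3 bladder stages, and on the second (right) the genotypes lie close in proximal stomach, at 9.35 in KO and 9.61 in WT.

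Pgc read 5.81 and 6.17 in KO proximal stomach, against 5.40 and 5.10 in WT proximal stomach. The KO arrays were the higher, but all 4 stood under their array medians. The difference was 0.74 (SE 0.26, 95% interval 0.20 to 1.28), with limma's adjusted p = 0.0338. The call held in 7 of 13 alternatives, with adjusted p of 0.0149 to 0.240, and was lost without KO replicate 2 (0.240), without WT replicate 2 (0.173) and in 4 other settings.

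The acid pump subunits were not called. Atp4a read 7.04 and 6.78 in KO proximal stomach, against 6.06 and 5.58 in WT proximal stomach. The KO pair lay above the WT pair, all 4 under their array medians. The difference was 1.09 (SE 0.50, 95% interval 0.06 to 2.13), with limma's adjusted p = 0.101, and it was called when the 4 proximal arrays were fitted alone (adjusted p = 0.0164). Atp4b read 7.25 and 7.14 in KO proximal stomach, against 7.70 and 7.57 in WT proximal stomach. Here the KO pair lay below the WT pair, all 4 again under their array medians. The difference was −0.44 (SE 0.25, 95% interval −0.96 to 0.09), with limma's adjusted p = 0.201.

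The remaining secreted products overlapped between the genotypes. Cblif read 4.68 and 5.43 in KO proximal stomach, against 5.05 and 4.35 in WT proximal stomach, a difference of 0.35 (SE 0.31, 95% interval −0.29 to 1.0, adjusted p = 0.415). Dmbt1 read 4.88 and 6.21 in KO, against 4.74 and 5.42 in WT, a difference of 0.47 (SE 0.39, 95% interval −0.36 to 1.29, adjusted p = 0.399). Both genes stood under the median of all 4 arrays. Pga5 read 7.12 and 8.75 in KO, against 8.45 and 9.05 in WT, a difference of −0.82 (SE 0.45, 95% interval −1.76 to 0.13, adjusted p = 0.182). The KO arrays of Pga5 differed more from each other than the genotypes did, and without KO replicate 2 the difference was −1.63 (adjusted p = 0.0161). In proximal stomach 5 of the 8 genes had both arrays of one genotype above both of the other, as had 63.8% of all genes.

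The difference between the 3' and 5' actin control probe sets, a measure of RNA quality, moved with genotype here. It was 0.48 and 0.61 in KO proximal stomach, against 0.97 and 0.88 in WT proximal stomach. With this value as a covariate, Bhlha15 kept a difference of 2.45 (adjusted p = 0.00321) and Ctse of 2.48 (adjusted p = 0.0472), Pgc had 0.91 (adjusted p = 0.160), and the genes called over the whole array were 2059 in place of 4448. The Atp4a difference was then 0.48 (adjusted p = 0.765).

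KO proximal stomach was next set against WT distal stomach, to ask how far short of the glandular level each gene stayed. All 8 genes were lower in KO proximal stomach, where 16.7% of all genes were called lower. As above, the count is no support in itself, since Cblif, Pgc and Atp4a were tested only through the distal stomach arrays. The differences were −7.91 (SE 0.39) for Dmbt1, −7.75 (SE 0.31) for Cblif, −7.04 (SE 0.26) for Pgc, −6.67 (SE 0.25) for Atp4b, −6.62 (SE 0.45) for Pga5, −5.15 (SE 0.52) for Ctse and −4.46 (SE 0.50) for Atp4a. Bhlha15 was the nearest to WT distal stomach, at −1.72 (SE 0.36, adjusted p = 7.6e-04), a 3.28-fold lower signal. Leaving out 1 array gave −2.30 to −1.13 for Bhlha15 and −5.81 to −3.11 for Atp4a, in both cases with the ends set by the 2 WT distal arrays, and both stayed called.

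Expressed as a share of the log2 distance between WT proximal and WT distal stomach, KO proximal stomach covered 63.7% of it for Bhlha15 and 34.4% for Ctse. It covered 19.7% for Atp4a, 9.47% for Pgc, 5.58% for Dmbt1 and 4.36% for Cblif, and it lay on the far side of WT proximal stomach for Atp4b (−6.99%) and Pga5 (−14.1%). Leaving out 1 array at a time gave 56.7% to 72.8% for Bhlha15, 26.4% to 40.7% for Ctse and 15.8% to 25.9% for Atp4a. For Cblif it gave −0.249% to 8.97%, for Dmbt1 −2.37% to 13.5% and for Pga5 −28.1% to −0.0540%. The Ctse share holds for its first probe set only. On the second, KO proximal stomach averaged 9.35, below the 9.61 of WT proximal stomach, with WT distal stomach at 10.66. The numerator and the denominator share the WT proximal arrays, so these shares are descriptions and carry no test. Cblif, Pgc and Dmbt1 lay below the first quartile of both WT proximal arrays. The lower end of their distance is thus not shown to be above background, and their shares have no order among themselves. Atp4a in WT proximal replicate 2 (5.58) and Ctse in replicate 1 (4.84) also lay below the first quartiles of those arrays (5.83 and 5.77). Atp4b (7.63) and Bhlha15 (6.92) in WT proximal stomach were near their WT bladder E18 means (7.33 and 7.09). These lower ends are likewise not shown to be above background.

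**Figure D3:**
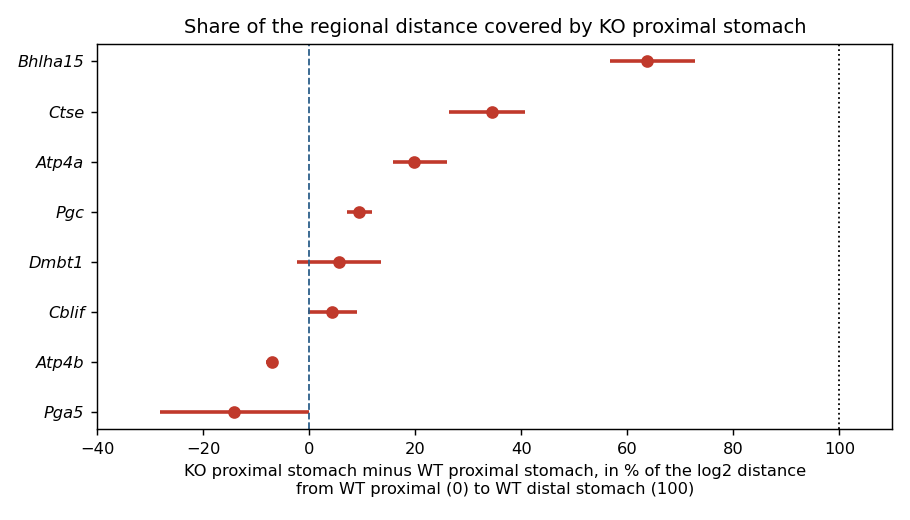
KO minus WT proximal stomach for each gene, as a percentage of the log2 distance from WT proximal stomach (0) to WT distal stomach (100). Points are group means and bars the range when 1 array at a time is left out, and the genes run from Bhlha15 (63.7%) at the top to Pga5 (−14.1%) at the bottom. Ctse is shown on its first probe set, and on its second KO lay below WT proximal stomach.

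The partners of these genes were read from lists by role. Of 14 tested genes of acid secretion or its regulation, 8 rose in KO proximal stomach, 1 fell and 5 were not called. Their median difference was 1.17, and 18.1% of all genes were called higher and 14.6% lower. Clic6, a chloride channel family member, averaged 11.35 in KO and 6.17 in WT proximal stomach (5.18, SE 0.50), the water channel gene Aqp4 10.28 and 5.79 (4.49, SE 0.58), and Kcnq1, a potassium channel pore subunit, 9.96 and 6.01 (3.95, SE 0.30). The somatostatin receptor gene Sstr2 rose by 2.75 (SE 0.29) and the nuclear receptor gene Esrrg by 2.58 (SE 0.41). Kcne2, the subunit that pairs with Kcnq1 in parietal cells, averaged 5.03 in KO and 5.51 in WT proximal stomach, a difference of −0.47 (adjusted p = 0.168), against 10.53 in WT distal stomach. The potassium channel gene Kcnj15 fell by 1.07 (SE 0.33). Against WT distal stomach, where 16.7% of all genes were called lower, 8 of the 14 were lower in KO proximal stomach, 2 were higher and 4 were not called, Kcnq1 at −0.62 (SE 0.30, adjusted p = 0.123) and Aqp4 at −0.73 (SE 0.58) among the 4. The list moved unevenly, with some partners near the glandular level and Kcne2 far below it.

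The chief cell partners gave no higher call. Of 7 tested by limma, 0 rose, 1 fell and 6 were not called, where 18.1% of all genes were called higher and 14.6% lower. At an unadjusted p under 0.05 again 0 were higher and 1 lower. Of the same 7 genes, 3 were called higher in WT distal than in WT proximal stomach, 1 was lower and 3 were not called (median 0.33). The list barely separates the WT regions, so its lack of higher calls says little about chief cells. Tnfrsf19, a receptor of progenitor cells, fell by 1.42 (SE 0.19). Cym, the milk-clotting protease chymosin, averaged 10.73 in KO and 10.21 in WT proximal stomach (0.52, SE 0.64), and at 10.73 in KO it was 3.90 (SE 0.64) below the 14.63 of WT distal stomach. Among 4 tested aspartic proteases, the enzyme class of the pepsinogens and Ctse, Bace2 rose by 1.71 (SE 0.25), Ctsd (cathepsin D) fell by 1.06 (SE 0.12) and 2 were not called. Of 7 tested cobalamin genes, the class of Cblif, 1 rose, the receptor gene Cd320 by 0.93 (SE 0.16), and 6 were not called. Of 4 tested subunits of related cation ATPases, 1 rose, Atp1b1 by 1.21 (SE 0.09), and Atp12a, the non-gastric proton and potassium pump, averaged 4.11 in KO and 4.56 in WT (−0.45, adjusted p = 0.651).

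Of 10 tested genes of mucous and surface cells, 7 rose, 1 fell and 2 were not called in KO proximal stomach, with a median difference of 2.07, against 18.1% higher and 14.6% lower over all genes. The folding factor gene Agr2 averaged 13.72 in KO and 6.71 in WT proximal stomach (7.01, SE 0.22), the trefoil factor gene Tff2 12.50 and 7.19 (5.32, SE 0.26), and the membrane mucin gene Muc1 11.32 and 7.25 (4.07, SE 0.34). Tff2 in KO proximal stomach was 0.17 (SE 0.26) below the 12.67 of WT distal stomach and did not pass the test for a difference. Gkn1 averaged 6.52 in KO and 4.46 in WT proximal stomach (2.06, SE 0.72), against 14.41 in WT distal stomach. Aqp5, a water channel gene, fell by 3.24 (SE 0.25). Whether these lists differ from the 8 gland genes was not tested.

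Endocrine genes of the gland were called once in 6, for Chga, which rose by 2.95 (SE 0.31). Of 16 tested stomach transcription factor genes, 5 rose, 1 fell and 10 were not called, where 32.7% of all genes were called. Foxa2 averaged 10.69 in KO and 5.92 in WT proximal stomach (4.77, SE 0.38), Hnf4a 9.72 and 6.45 (3.27, SE 0.24) and Foxa3 8.46 and 5.42 (3.04, SE 0.25). Klf4 fell by 0.94 (SE 0.17). Against WT distal stomach 11 of the 16 were lower in KO proximal stomach and 2 higher, where 16.7% of all genes were called lower and 16.1% higher. The largest deficits were those of Gata4, at 6.54 in KO proximal and 12.18 in WT distal stomach (−5.64, SE 0.25), Nkx6-3 (−5.23, SE 0.60), Pdx1 (−4.55, SE 0.39), Gata5 (−3.71, SE 0.21) and Gata6 (−3.68, SE 0.18). Gata4 averaged 6.98 in WT proximal stomach, so its KO minus WT difference there was −0.44 (adjusted p = 0.20).

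**Figure D4:**
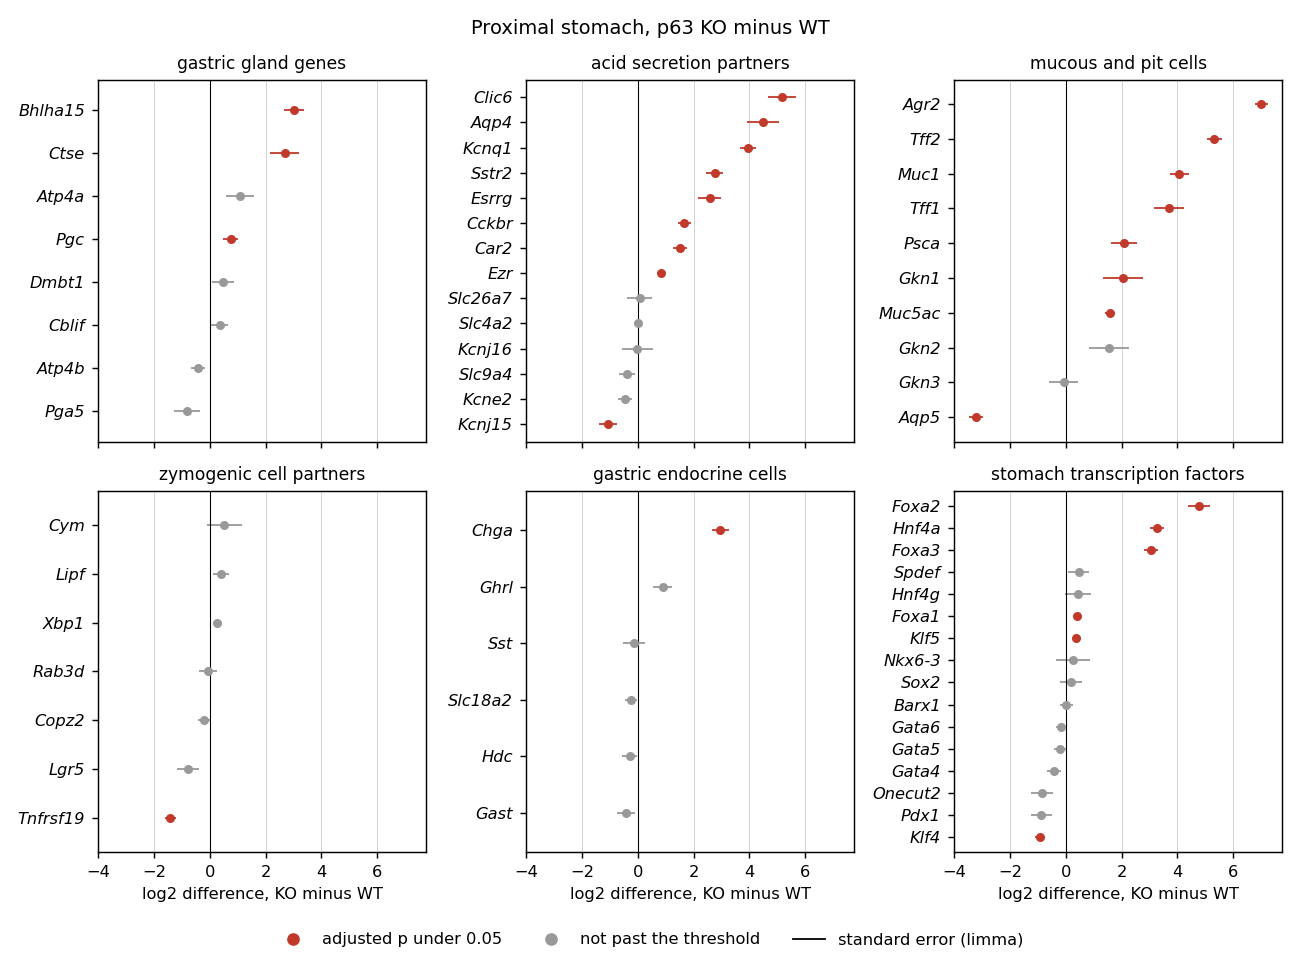
KO minus WT log2 differences in proximal stomach for the 8 gland genes and 5 lists of related genes, with bars for limma's standard error. Red points passed an adjusted p of 0.05 and grey points did not. Bhlha15 (3.01) and Ctse (2.69, on its first probe set only) stand apart from the other gland genes, and Clic6, Agr2 and Foxa2 lead their lists.

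Markers of other cell types were read beside these differences, and their part in the results was not tested. In KO against WT proximal stomach 18.1% of all genes were called higher and 14.6% lower. The 9 tested squamous genes averaged 10.24 and 10.43 in the KO proximal arrays, against 13.22 and 13.38 in the WT proximal arrays, with 5 lower and 4 not called. Krt13 (14.61 in KO, 14.64 in WT) and Krt4 (14.58 in KO, 14.62 in WT), keratins of suprabasal cells, were among the 4. The 9 genes averaged 6.16 and 6.33 in KO and 6.13 and 6.05 in WT distal stomach, below all 4 proximal arrays. Pancreatic acinar genes, which share Bhlha15, averaged 5.99 and 6.46 in KO, against 6.06 and 6.02 in WT proximal stomach, and 0 of 9 were called by limma, nor did any pass at an unadjusted p under 0.05. Of the plasma cell list 2 genes were tested, of which Sdc1, also a gene of squamous cells, fell by 1.47 (SE 0.08) and Ighm did not pass the test. Urothelial genes, whose tissue also holds Ctse, averaged 10.99 and 11.11 in KO, against 7.43 and 7.57 in WT proximal stomach, with 3 of 4 higher. In KO against WT proximal stomach limma called none of the 7 intestinal and 5 liver genes, and at an unadjusted p under 0.05 stood 0 intestinal and 2 liver genes, 1 in each direction. In KO proximal against WT distal stomach 5 of the 7 intestinal genes (median −1.01) and 4 of the 5 liver genes (median −2.10) were lower. There 16.7% of all genes were called lower. In WT distal against WT proximal stomach 5 (median 0.82) and 3 (median 1.72) were higher, where 22.3% of all genes were called higher. Both lists had the direction of the gland genes between the regions, but smaller medians than theirs (−6.64 and 7.01). Of 5 smooth muscle genes 1 was lower in KO than in WT proximal stomach, Myh11 by −0.55 (SE 0.16), near the 14.6% of all genes.

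In distal stomach, KO against WT, limma called none of the 8 genes, and it called 0.00% of all genes. At an unadjusted p under 0.05 stood 3 of the 8 genes and 528 (3.88%) of all genes. These 3 were Atp4a at −1.21 (SE 0.50), Dmbt1 at −1.04 (SE 0.39) and Bhlha15 at −0.76 (SE 0.36), each with adjusted p = 0.996. At the same unadjusted p, 4 of 7 intestinal genes (median −0.50) and 2 of 5 liver genes (median −1.31) were lower with them. So were 2 of 6 endocrine genes of the gland (median −0.57) and 1 of 14 acid secretion genes (median −0.05). Of 10 mucous and surface cell genes 0 were lower (median −0.32), and none of these lists held a higher gene. Their part in these values was not tested. Dmbt1 read 12.37 and 12.46 in KO, against 14 and 12.90 in WT distal stomach, and Bhlha15 read 10.83 and 10.95 in KO, against 12.24 and 11.06 in WT. In both the KO arrays lay close together below the WT pair, and in 3 of the 8 genes the genotypes did not overlap, as in 27.7% of all genes. The other 5 differences lay between −0.39 (Atp4b) and −0.17 (Pgc).

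The WT distal arrays differed from each other in several gland genes. Replicate 1 exceeded replicate 2 by 2.69 for Atp4a, 1.18 for Bhlha15, 1.10 for Dmbt1, 0.97 for Atp4b and 0.91 for Cblif, while Pgc (−0.23) and Ctse (0.06) were close. Of the 5 liver genes 4 ran the other way, from Alb (6.23 in replicate 1, 10.69 in replicate 2) to Fgb (6.70 and 7.69), while Ttr, at 14.07 and 13.81, ran with the gland genes. The mean of the 5 was 8.36 in replicate 1 and 10.26 in replicate 2. Whether liver RNA bears on the gland genes was not tested. Without WT replicate 2 the KO minus WT difference of Atp4a was −2.55 (adjusted p = 2.3e-04), and without WT replicate 1 it was 0.14.

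The KO minus WT difference in proximal stomach exceeded that in distal stomach for 3 of the 8 genes in a test of the difference itself, where 10.3% of all genes were called higher. Bhlha15 differed by 3.77 (SE 0.50, adjusted p = 9.4e-06), Ctse by 2.89 (SE 0.73, adjusted p = 0.00685) and Atp4a by 2.30 (SE 0.70, adjusted p = 0.0243). For Ctse the value was 2.04 (adjusted p = 0.0607) without WT proximal replicate 1, 2.64 (adjusted p = 0.139) with the actin covariate, and −0.12 on the second probe set. For Atp4a it was 0.95 to 3.64 when 1 array was left out, lowest without WT distal replicate 1. The Atp4a call held in only 10 of 17 alternatives. Neither of its parts was called by limma, at 1.09 in proximal stomach (adjusted p = 0.101) and −1.21 in distal stomach (adjusted p = 0.996). Against the KO minus WT difference in bladder E18, that in proximal stomach was called higher for Bhlha15 alone of the 8, by 2.72 (SE 0.50, adjusted p = 4.3e-04), where 12.4% of all genes were called. The same value was 1.04 (SE 0.73, 95% interval −0.49 to 2.56) for Ctse. For Pga5 it ran the other way, at −1.75 (SE 0.64, 95% interval −3.09 to −0.42, limma's adjusted p = 0.0544). That Pga5 difference was called in 2 of 17 alternatives.

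In bladder, Ctse was called higher in KO at E15 and not at E18 or E19, on its first probe set. It read 11.24 and 11.22 in KO bladder E15, against 9.03 and 9.55 in WT bladder E15, a difference of 1.94 (SE 0.52, adjusted p = 0.0284). It read 12.04 and 12.08 in KO, against 10.15 and 10.65 in WT at E18 (1.66, SE 0.52, adjusted p = 0.0939), and 13.03 and 13.06 in KO, against 11.86 and 11.49 in WT at E19 (1.37, SE 0.52, adjusted p = 0.0660). On this probe set both KO arrays lay above both WT arrays at each stage, and the mean was higher at each later stage in both genotypes. The bladder E19 arrays had the lowest medians of all arrays, so stage and array distribution cannot be told apart between E18 and E19. The call at E15, 1 of the 8 genes where 4.55% of all genes were called higher, was lost when any 1 of the 4 arrays was left out (adjusted p of 0.0557 to 0.281). The 3' minus 5' actin value also moved with genotype at E15, at 1.33 and 1.12 in KO, against 0.69 and 0.78 in WT. With this value as a covariate, the Ctse difference at E15 was 2.22 (limma's adjusted p = 0.858). The genes called over the whole array were then 3 in place of 959. At E18 and E19 none of the 8 genes was called by limma, where 1.56% and 13.5% of all genes were called higher. At an unadjusted p under 0.05 Ctse stood alone among the 8, where 15.3% and 33.1% of all genes stood. The second Ctse probe set gave −0.22 at E15, −0.44 at E18 and 0.90 (adjusted p = 0.00725) at E19, and its means were lower at each later stage, at 10.12, 9.21 and 8.37 in KO and 10.33, 9.65 and 7.47 in WT. Both the genotype difference and the order of the stages in bladder thus depend on the probe set.

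Pga5 was low in bladder but likewise non-overlapping. Its means were 6.16 in KO and 5.15 in WT at E15, 6.35 in KO and 5.42 in WT at E18, and 6.36 in KO and 5.88 in WT at E19, all under the array medians. The differences of 1.01, 0.94 and 0.47 (SE 0.45 each) were not called. The genotypes did not overlap in 4 of the 8 genes at E15 (55.3% of all genes), 5 at E18 (49.3%) and 3 at E19 (64.6%). The other 6 genes differed by −0.25 to 0.45 at the 3 stages, and none was called.

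In the intestines none of the 8 genes was called by limma, where 0.00% of all genes were called in small intestine and 0.0882% in large intestine. At an unadjusted p under 0.05 stood 626 genes (4.60%) in small intestine, with none of the 8, and 665 (4.89%) in large intestine, with Dmbt1. Dmbt1 read 13.61 and 13.69 in KO small intestine, against 13.20 and 13.80 in WT small intestine, a difference of 0.15 (SE 0.39). In large intestine it read 11.87 and 11.77 in KO, against 13.25 and 12.18 in WT, a difference of −0.90 (SE 0.39, adjusted p = 0.999). The small intestine arrays overlapped, and in large intestine the KO arrays lay below the WT arrays, which were far apart. Bhlha15 averaged 7.80 in KO and 8.06 in WT large intestine and 7.52 in KO and 7.47 in WT small intestine, and Ctse 8.02 in KO and 8.51 in WT large intestine.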

How the data were processed

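Total RNA was extracted with Trizol and labelled with a 3' IVT express kit, per the labels' protocols. The authors deposited log2 values for each probe set, and these were used unchanged. Per the submitters' processing notes, Partek and Affymetrix Expression Console (no versions) were used. How signals were background-corrected, summarized and normalized is not given in the sources used here. Of 45101 probe sets, 64 controls were left out, and 28866 lay above their array's median on at least 2 of 28 arrays. Each of 13613 genes was its highest-mean probe set among those with 1 symbol in the platform annotation.

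All 28 arrays entered 1 model of 14 group means, with a variance trend and 14 residual and 6.19 prior degrees of freedom. It was fitted with limma 3.58.1 in R 4.3.3 and was tested on simulated data. Figures used Python 3.11.15 with pandas 2.3.3 and matplotlib 3.10.9. P-values are two-sided. An exact permutation of 2 against 2 arrays cannot fall below 0.333. The number of arrays limits the precision. The members and lists were chosen with earlier results of these data known. Named are the members, the 3 genes most correlated with each, up to 5 of each list with the largest called differences in the comparison discussed, and markers that touch a result. Kcne2, Cym, Gata4, Ighm and Atp12a in KO against WT proximal stomach were named after their values were seen. Alternatives were other normalizations, filters, probe set rules, array weights, a replicate block, the actin covariate, fewer groups in the fit and leaving out arrays.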

Additional observations from a re-analysis of the deposited data

Results flagged for a closer look

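These differences between tissues in the response to genotype passed their own test, each the KO minus WT difference in proximal stomach minus the same difference elsewhere. Against distal stomach, Bhlha15 differed by 3.77, Ctse by 2.89 and Atp4a by 2.30. Ctse gave 2.04 (limma's adjusted p = 0.0607) without WT proximal stomach replicate 1 and −0.12 on its second probe set. Atp4a gave 0.95 to 3.64 when 1 array was left out, lowest without WT distal stomach replicate 1. Its call held in only 10 of 17 alternatives, and it was called in neither stomach region alone. Against bladder E18, Bhlha15 differed by 2.72. No explanation was tested. No group held enough arrays for a check of single outlying samples.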

How the results depend on the processing

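Counts of the 8 genes and of all genes called moved as follows. With the actin covariate 2059 genes were called in proximal stomach, 1 of the 8 and 1244 genes in its difference from distal stomach, 1860 in its difference from bladder E18, and 0 of the 8 and 3 genes in bladder E15. With only the groups compared, counts were 2 of the 8 and 514 genes in bladder E15, 1 and 291 in bladder E18, 1 in bladder E19, 2 in the difference from bladder E18, and 0 genes in large intestine. Array weights gave 1 of the 8 and 716 genes in bladder E18 and 1 of the 8 in bladder E19, and the mean of a gene's probe sets gave 0 in bladder E15 and 1 in bladder E19. Centring each array on its median moved the share of calls that were higher in bladder E18 from 48.3% to 33.4%.

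Leaving out 1 array gave 0 of the 8 in bladder E15 (126 to 1783 genes), 0 in bladder E18 (164 to 311) and bladder E19 (1364 to 1990), 0 to 1 in distal stomach (0 to 252), 0 in large (4 to 121) and small intestine (0 to 14), 1 to 2 in the difference from bladder E18, and 2858 to 3952 genes in KO proximal against WT distal stomach. Signs turned in that range for Atp4a (−2.55 to 0.14), Atp4b (−0.87 to 0.09) and Cblif (−0.76 to 0.15) in distal stomach, Cblif (−0.02 to 0.73) and Dmbt1 (−0.20 to 1.13) in proximal stomach, Atp4b (−0.53 to 0.44) and Pga5 (−1.43 to 0.20) in the difference from distal stomach, and Dmbt1 (−0.16 to 1.18) in that from bladder E18. Pga5 also turned in the difference from distal stomach with the actin covariate (0.08). The second Ctse probe set, chosen after seeing the data, gave −0.26 in proximal stomach, −0.12 in the difference from distal stomach, −0.22 in bladder E15 and −0.44 in bladder E18. The cause was not tested.

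The replicate block called 4460 genes and 3 of the 8 in proximal stomach, and it changed no call of these genes in any comparison. The deviations of like-numbered arrays correlated at −0.26 to 0.35 over 91 pairs of groups, with 26 over 0.1 and 6 under −0.1. The labels do not say that a number marks a shared litter or batch, and not every pair was over 0.1. The numbers were therefore not taken to pair the samples, but sharing among some of the groups cannot be told from these values. Under the alternatives Bhlha15 kept its calls in proximal stomach (13 of 13) and in both differences (17 of 17 each), Ctse in proximal stomach (13 of 13, the second probe set apart) and in the difference from distal stomach (15 of 17), and Atp4a in that difference (10 of 17). All these Bhlha15 fits used its first probe set. Cblif, Pgc, Atp4a, Atp4b and Dmbt1 lay under the array medians in proximal stomach, where dim signal limits what small differences can show.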
